A study of Mus musculus with 12 samples.

Results

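The genes described here encode the PIWI proteins and the factors that make PIWI-interacting RNAs (piRNAs) in the mouse germline. The members are *Mael*, *Piwil1*, *Piwil2*, *Piwil4*, *Mov10l1*, *Ddx4*, *Asz1*, *Pld6*, *Gtsf1* and *Henmt1*, found by their symbols among the gene rows, and all 10 were present among 20981 genes. The 12 RNA-seq libraries were made from testes of C57BL/6 mice aged 3 months. The mice of all 4 groups carried the *Mael*-/- genotype, a null allele of *Mael*, so every comparison below is within the mutant and none has wild-type tissue. TOTAL (3 libraries) was RNA of the clarified testis extract after EDTA had been added to 10 mM, which takes ribosomes apart. INPUT (3 libraries) was RNA of fractions 5 to 8, pooled, of that extract run through a 10 to 50% sucrose gradient. IP (3 libraries) was RNA recovered from INPUT with an antibody to ORF1p, the RNA-binding protein encoded by the LINE-1 (L1) retrotransposon. BO (3 libraries) was RNA recovered from INPUT with beads only, carrying no antibody. IP libraries were made from less RNA than TOTAL and INPUT libraries, and BO libraries from whatever RNA the bare beads held. Whether replicates of a group came from separate animals or extracts is not given in the sources used here.

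piRNAs are short germline RNAs that are loaded into PIWI proteins and guide them to transposon RNA, which is cleaved in the cytoplasm or silenced at its locus by DNA methylation. Long single-stranded precursors are unwound and cut at the surface of mitochondria and in germ granules (nuage), and the resulting pieces are bound by PIWI proteins, trimmed and methylated at their 3′ ends. Loss of factors of this pathway, *Mael* included, leads to expression of L1 and other retrotransposons in spermatocytes and to male sterility. The comparison of IP with BO, INPUT and TOTAL asks which RNAs of the mutant testis are held in ORF1p particles. The transcripts of the pathway's own genes are among the RNAs it measures.

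The deposited gene tables hold 1 comparison each, and list the authors' mean normalised read count of IP and of BO, INPUT or TOTAL over 3 libraries. The IP mean stands in all 3 tables under different scalings, and from these means the whole reads of each of the 3 IP libraries could be recovered. Those libraries are called A, B and C here because they could not be tied to the replicate numbers of the labels. They held 21387454, 19754089 and 20549345 reads on genes. Of BO, INPUT and TOTAL the tables give no value per library. The authors' own test columns were not used, so no test between groups is given here and the spread among the libraries of those groups was not computed. In their place the spread over the IP libraries is given, with a standard error that takes each read as an independent molecule and covers counting error only. In genes with many reads it is far smaller than the spread over the IP libraries. In BO, the value of 1 read differed 2.10-fold between the deepest and the shallowest library, against 1.35-fold in INPUT and 1.56-fold in TOTAL.

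Markers of testis cell types were read in TOTAL to check the tissue. Spermatogonia (6 markers, median 1247), spermatocytes (6, median 4382), Sertoli cells (6, median 1743) and Leydig cells (5, median 14852) were all represented in mean normalised counts. The 6 spermatid markers, such as protamines and transition proteins, lay between 11.7 and 39.3. The 6 spermatocyte markers ranged from 202 (*Spo11*) to 9433 (*Sycp1*), and the 5 pachytene markers from 13.2 (*Ccna1*) to 1385 (*Hspa2*), with a median of 143, which is *Piwil1* itself. In such bulk libraries, fewer cells of a type and less RNA per cell cannot be told apart.

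*Mael*, the mutated gene, encodes a germ granule protein required for transposon silencing and lies at chr1:166201201-166238747 (mm10, minus strand). The recovered reads of *Mael* were 0 in each of the 3 IP libraries. Its mean was 0 in INPUT, 0.502 in BO, which equals 1 read in 1 library, and 0.650 in TOTAL, which equals 2 reads. All 4 groups were below the mean that 3 reads would give, which was 1.29 in IP, 1.51 in BO, 0.987 in INPUT and 0.978 in TOTAL. No fold change is given for *Mael*, and it is left out of the counts that follow. The other 9 genes had a mean of at least 10 over both groups in every table.

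Length-scaled levels in TOTAL placed the 9 genes over a wide range. *Ddx4*, which encodes the DEAD-box helicase of germ granules, had the highest level at 867 normalised reads per kb of its longest transcript. *Mov10l1*, the helicase that hands precursors to the piRNA machinery, and *Piwil2* (MILI), the PIWI protein present from fetal germ cells to round spermatids, followed at 619 and 609.7 per kb. *Asz1* (GASZ), a mitochondrial scaffold of nuage, stood at 274 per kb, and *Gtsf1*, a small cofactor of PIWI proteins, at 217 per kb. *Pld6* (mitochondrial PLD, the nuclease that cuts precursors), *Henmt1* (the methyltransferase of piRNA 3′ ends), *Piwil1* and *Piwil4* were lower, at 62.4, 51.2, 35.7 and 14.8 per kb. *Piwil1* (MIWI) is the PIWI protein of pachytene spermatocytes and round spermatids, and *Piwil4* (MIWI2) that of fetal prospermatogonia. Since TOTAL is given as a mean, whether neighbours in this order differ beyond the spread of the libraries is not known.

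In IP, where each library can be read, the order differed from that in TOTAL at the top and below *Gtsf1*, while *Piwil4* was last in both. *Mov10l1* ranged from 4745 to 6072 normalised reads per kb over the 3 libraries, *Ddx4* from 3765 to 4761 and *Piwil2* from 3750.0 to 5048. The ranges overlapped, but within each of the 3 libraries *Mov10l1* was the highest, while *Ddx4* was above *Piwil2* in libraries A and B and below it in C. *Asz1* lay below them at 1083 to 1332 per kb, and *Gtsf1* next at 262 to 330.4, with no overlap at either step. *Piwil1* lay at 168 to 202 per kb, above both *Henmt1* at 65.0 to 102 and *Pld6* at 53.4 to 81.6. The ranges of these 2 genes overlapped, and *Henmt1* was the higher within each library. *Piwil4* was lowest at 10.3 to 17.9 per kb, below every library of the other 8 genes. *Mov10l1* thus stood second of the 9 genes in TOTAL and first in IP, and *Piwil1* eighth in TOTAL and sixth in IP.

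**Figure D1:**
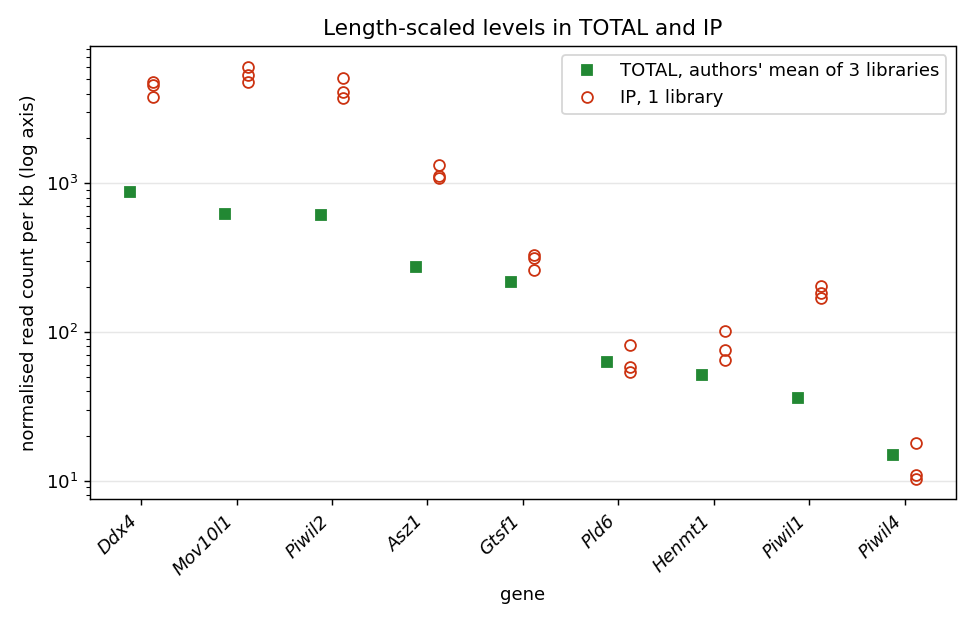
Normalised read count per kb of the longest transcript (log axis) for the 9 genes above the minimum mean, ordered by their level in TOTAL. Squares are the authors' TOTAL means over 3 libraries and open circles are the 3 IP libraries on the scale of the same table. *Piwil1*, at 35.7 per kb in TOTAL, lies above *Pld6* and *Henmt1* in all 3 IP libraries.

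Promoter windows are printed for *Piwil1*, *Mov10l1* and *Ddx4*, whose RefSeq start has a match to the MYB core. Their RNA was at least 2-fold higher in IP than in each of BO, INPUT and TOTAL. A link between the match and these ratios was not tested. MYBL1 (A-MYB) is the transcription factor of pachytene piRNA loci and of several piRNA pathway genes. The letters searched were AACGG on both strands, so that CCGTT marks a match on the opposite strand. The table of 32851 RefSeq promoters (GRCm38.p6, the assembly also named mm10) gives 250 bases before to 50 after each start, and 17.4% of its entries hold a match. Of the 11 entries for 9 of the 10 genes, 4 hold one. No entry was found under the symbol *Piwil2*. The *Piwil1* window is chr5:128736095-128736123 on the plus strand, with the match beginning 139 bases before the RefSeq start. The *Mov10l1* window is chr15:88982765-88982793 on the plus strand, with the match 217 bases before the start. The *Ddx4* window is chr13:112652314-112652342 on the minus strand, with the match 20 bases before the start. Each is written 5′ to 3′ on the gene's strand, with the match in capitals. The RefSeq starts of all 3 entries lie inside the GENCODE spans of their genes. Those of *Mov10l1* and *Ddx4* are near the 5′ end of the gene. That of *Piwil1* is far from it, as its span begins at chr5:128702524.
*Piwil1*: gtgtccacctcgCCGTTaacccagaggtc
*Mov10l1*: cctctcgtggctAACGGtcgagcctcgtg
*Ddx4*: ccgcacgtgcagCCGTTtaagccgcgtcg
The other match was in an entry for *Pld6* that also starts inside its gene. The entries for *Mael*, *Piwil4*, *Asz1*, *Gtsf1* and *Henmt1* held none. The match is a description of these letters, and no binding was measured here. *Mybl1* RNA itself had a mean of 2506 in TOTAL beside 8987 in IP, and of 3237 in INPUT beside 9011 in IP. In BO it was 4564, beside 6879 in IP. Each pair has its own scaling.

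The first comparison was of IP with TOTAL, that is, of RNA in the antibody pull-down with RNA of the whole extract. Of the 9 genes, 5 were at least 2-fold higher in IP (*Piwil1*, *Piwil2*, *Mov10l1*, *Ddx4* and *Asz1*), none was 2-fold lower, and 4 were between these limits. Over all 14666 genes with a mean of at least 10, 20.4% were at least 2-fold higher and 26.2% at least 2-fold lower. The median log2 ratio was 2.10 over the 9 genes and -0.03 over all genes. Each of the 3 IP libraries on its own put the same 5 genes at least 2-fold above the TOTAL mean, and none put any of the other 4 there. Scaled by the sum of the gene means, the same 5 genes were at least 2-fold higher, beside 9.61% of all genes higher and 38.1% lower.

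Spermatocyte markers lay in the same direction as these 5 genes. All 6 spermatocyte markers were at least 2-fold higher in IP than in TOTAL, with a median log2 ratio of 2.63, and their summed count was 26537 in TOTAL and 137718 to 185607 over the IP libraries. Of the pachytene markers other than *Piwil1*, 3 had a mean of at least 10, with log2 ratios of 2.04 (*Hspa2*), 0.87 (*Ldhc*) and -0.16 (*Pgk2*). None of 6 spermatogonial markers was higher and 2 were lower, with sums of 7757 in TOTAL and 3149 to 4543 in IP. None of 6 Sertoli markers was higher and 4 were lower (75027 in TOTAL, 21505 to 28928 in IP), and all 5 Leydig markers were lower (77573 in TOTAL, 13396 to 18407 in IP). The 6 spermatid markers summed to 139.9 in TOTAL and 2.33 to 7.81 in IP. Of peritubular and vessel markers 1 of 3 was lower than TOTAL, as was 1 of 2 macrophage markers, and none was higher. Against INPUT and against BO, all 6 spermatocyte markers were again at least 2-fold higher in IP, with medians of 2.52 and 3.34. So were all 4 pachytene markers with a mean of at least 10, *Piwil1* among them. Against INPUT, no spermatogonial, Sertoli, Leydig, peritubular and vessel or macrophage marker was at least 2-fold higher, beside 20.5% of all genes. At least 2-fold lower, beside 14.6% of all genes, were 1 of 6 spermatogonial, 3 of 6 Sertoli, 4 of 5 Leydig and 2 of 2 macrophage markers. Of the markers of other cells, those at least 2-fold higher against BO, where 43.9% of all genes were, numbered 2 of 6 for spermatogonia (*Stra8*, *Uchl1*), 2 of 5 for Leydig cells, 2 of 3 for peritubular and vessel cells, 2 of 2 for macrophages and none of 6 for Sertoli cells. At least 2-fold lower against BO, as 11.2% of all genes were, were 2 of 6 spermatogonial markers (*Zbtb16*, *Kit*), 2 of 6 Sertoli markers (*Sox9*, *Wt1*) and none of the Leydig, peritubular and vessel or macrophage markers. The part of cell type in the ratios of the 9 genes was not tested.

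The PIWI genes differed among themselves in this comparison. *Piwil2* had a mean of 2997 in TOTAL and 18435, 20105 and 24816 in IP libraries A, B and C, a 7.05-fold difference of the means. All 3 IP libraries were 6.15- to 8.28-fold above the TOTAL mean, and the log2 ratio of 2.82 (counting SE 0.02) was higher than in 99.4% of genes. *Piwil1* had a mean of 143 in TOTAL and 676, 736 and 813 in the IP libraries. This is 5.17-fold, with single libraries from 4.72- to 5.67-fold, and a log2 ratio of 2.36 (counting SE 0.08). *Piwil4* had a mean of 48.9 in TOTAL and 34.2, 36.1 and 59.3 in the IP libraries, which lay on both sides of the TOTAL mean. Its log2 ratio of -0.18 (counting SE 0.19) was smaller than its counting error, and rested on 112 IP reads in all.

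Among the helicases and scaffolds, *Mov10l1* had the largest ratio of the 9 genes. Its mean was 2558 in TOTAL, and its IP libraries held 19609, 22086 and 25095. All 3 were 7.66- to 9.81-fold above the TOTAL mean, and the log2 ratio of 3.12 (counting SE 0.02) exceeded that of 99.8% of genes. *Ddx4* had 2611 in TOTAL and 11339.8, 14341 and 13687 in IP, which is 5.03-fold with single libraries from 4.34- to 5.49-fold. *Asz1* had 643 in TOTAL and 2539, 3123 and 2598 in IP, which is 4.28-fold with single libraries from 3.95- to 4.86-fold. For each of these 3 genes the lowest IP library was well above the TOTAL mean.

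The enzymes that cut and finish piRNAs, and the cofactor *Gtsf1*, were closer to TOTAL. *Gtsf1* had 178 in TOTAL and 215, 257 and 271 in the IP libraries, which is 1.39-fold. *Henmt1* had 102 in TOTAL and 129.8, 150.3 and 204 in IP, which is 1.58-fold. All 3 IP libraries were above the TOTAL mean in both genes, and none reached 2-fold. *Pld6* had 109 in TOTAL and 93.7, 101 and 143 in IP, so that its IP libraries lay on both sides of the TOTAL mean at a ratio of 1.03. With groups scaled by the sum of the gene means, the log2 ratios of *Pld6* and *Gtsf1* turned to -0.47 and -0.04.

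**Figure D2:**
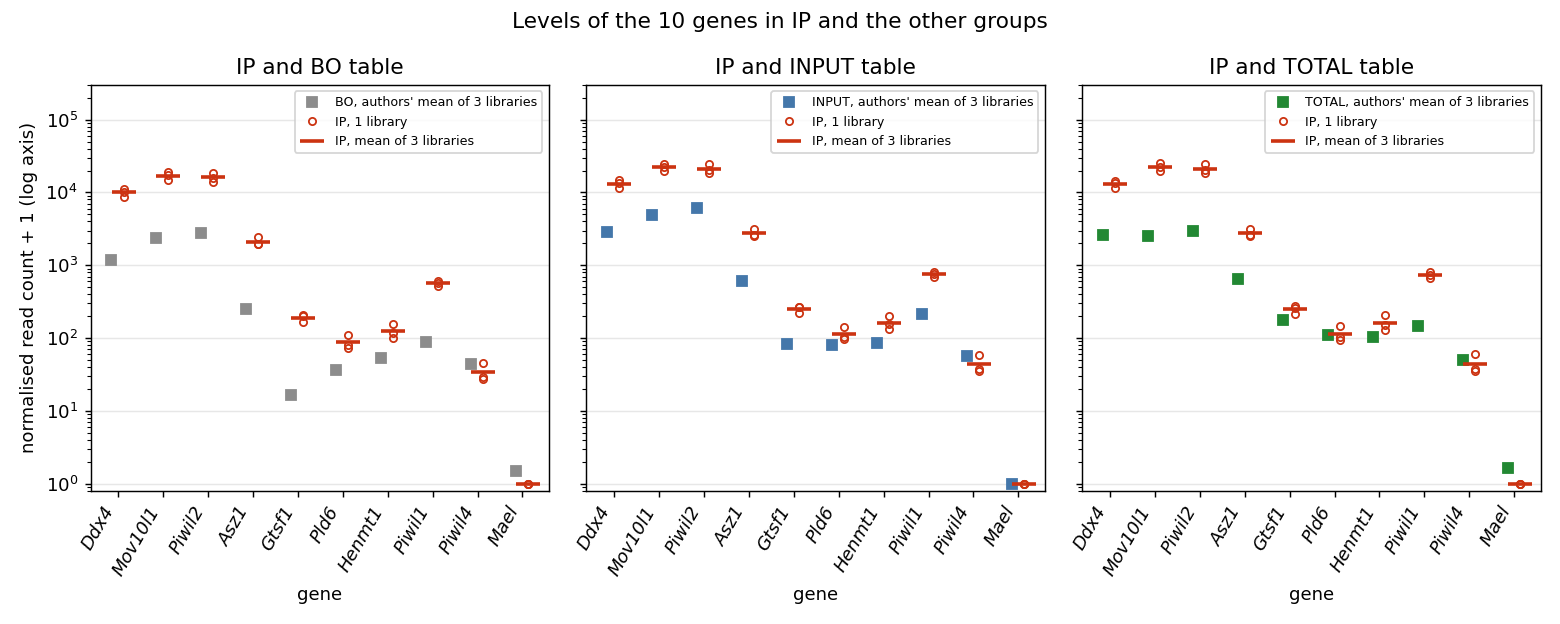
Mean normalised read count plus 1 (log axis) of the 10 genes, 1 panel for each deposited table; squares are the authors' means of BO, INPUT or TOTAL, open circles the 3 IP libraries and bars the IP mean. *Ddx4*, *Mov10l1*, *Piwil2*, *Asz1* and *Piwil1* have all 3 IP libraries above the square in every panel, and *Mael* sits at or near 0 counts in all groups.

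The second comparison was of IP with INPUT, the pooled fractions from which the antibody drew its material. Of the 9 genes, 6 were at least 2-fold higher in IP, namely the 5 above and *Gtsf1*, and none was 2-fold lower. Over all 14400 genes, 20.5% were at least 2-fold higher and 14.6% at least 2-fold lower. The median log2 ratio was 1.78 over the 9 genes and 0.15 over all genes. The 6 genes were at least 2-fold above the INPUT mean in each of the 3 IP libraries. Scaled by the sum of the gene means, the same 6 genes were at least 2-fold higher, beside 8.89% of all genes higher and 28.1% lower. The comparisons share the IP libraries, so they are not independent of each other.

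*Ddx4*, *Asz1* and *Mov10l1* lay close together, with log2 ratios of 2.21, 2.20 and 2.19. *Ddx4* had a mean of 2845 in INPUT and IP libraries from 11542 to 14649, which were 4.06- to 5.15-fold above it. *Asz1* had 602 in INPUT and IP libraries from 2537 to 3190.1, and *Mov10l1* had 4884 and IP libraries from 19959 to 24505. The order of their ratios changed between IP libraries, so no order among these 3 is given. *Piwil1* had 210.4 in INPUT and IP libraries from 688 to 794, a log2 ratio of 1.82 (counting SE 0.07). *Piwil2* had 6186 in INPUT and IP libraries from 18764 to 24233, a log2 ratio of 1.78 (counting SE 0.01). *Piwil2* was thus 7.05-fold above TOTAL and 3.42-fold above INPUT, while *Ddx4* was 5.03-fold and 4.64-fold.

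*Gtsf1* went the other way, at 1.39-fold over TOTAL and 3.02-fold over INPUT. Its INPUT mean was 82.4, and its IP libraries held 219, 263 and 264 on the scale of that table. *Henmt1* had 85.0 in INPUT and IP libraries from 132 to 199, a log2 ratio of 0.92 (counting SE 0.12). It was below the 2-fold limit over all 3 IP libraries and above it, at 1.04, without library A. *Pld6* had 80.1 in INPUT and 95.4, 104 and 139.7 in IP, a log2 ratio of 0.49, which turned to -0.04 with groups scaled by the sum of the gene means. *Piwil4* had 55.7 in INPUT and 34.8, 36.9 and 57.9 in IP, a log2 ratio of -0.36 (counting SE 0.18). Of these 4 genes, *Piwil4* was the 1 whose IP libraries fell on both sides of the INPUT mean.

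The third comparison was of IP with BO, the RNA that stuck to beads without antibody. Of the 9 genes, 8 were at least 2-fold higher in IP and none was 2-fold lower. Over all 13634 genes, 43.9% were at least 2-fold higher and 11.2% at least 2-fold lower, so the ratio to BO was high for many genes. The median log2 ratio was 2.70 over the 9 genes and 0.81 over all genes. Relative to the median gene, 6 of the 9 genes remained at least 2-fold higher in IP and *Piwil4* was at least 2-fold lower, beside 18.3% of all genes higher and 24.1% lower. *Pld6* and *Henmt1* were the 2 genes that no longer passed.

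*Gtsf1* had few reads in BO. Its BO mean was 15.7, which stands for 32 to 65 reads over 3 libraries, and its IP libraries held 164, 201 and 204. The log2 ratio was 3.52 with a counting SE of 0.26, the widest of the 9, and fell to 2.96 with a pseudocount of 10. *Ddx4* had 1178 in BO and IP libraries from 8670.03 to 11206, a log2 ratio of 3.09. *Asz1* had 249 in BO and IP libraries from 1942 to 2440.3, a log2 ratio of 3.08. *Mov10l1* had 2352 in BO and IP libraries from 14992 to 18884, a log2 ratio of 2.86. These 4 genes exceeded 97.2% to 99.5% of all genes in this ratio.

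*Piwil1* had a mean of 86.4 in BO and IP libraries from 517 to 612, a log2 ratio of 2.70. *Piwil2* had 2812 in BO and IP libraries from 14095 to 18675, a log2 ratio of 2.52. *Pld6*, with 35.6 in BO and 71.6 to 108 in IP, and *Henmt1*, with 51.7 in BO and 99.2 to 153 in IP, had log2 ratios of 1.251 and 1.238. On the log2(value + 1) scale of the call, the lowest IP library was below the 2-fold limit in both, at 0.99 and 0.93. *Piwil4* had 42.5 in BO, and its IP libraries held 26.1, 28.2 and 44.6, a log2 ratio of -0.36 (counting SE 0.21). *Piwil4* was the 1 gene of the 9 with no IP library at 2-fold in any of the 3 comparisons.

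**Figure D3:**
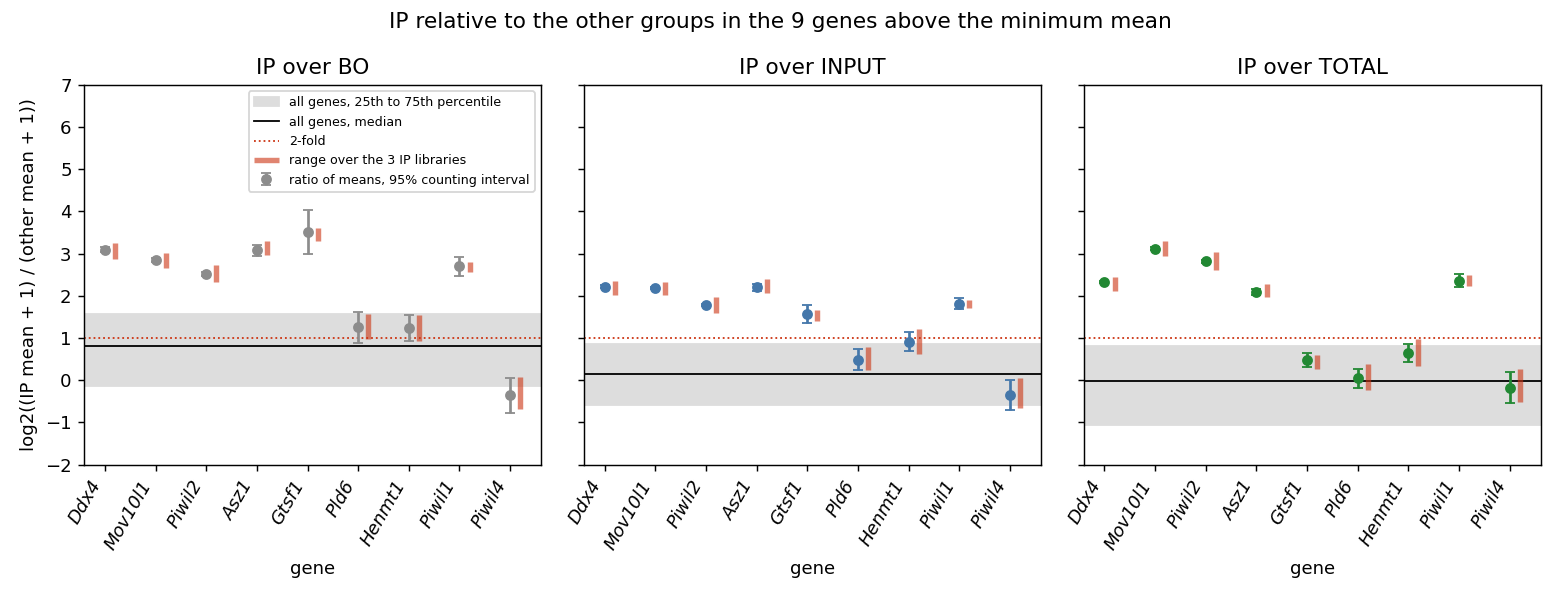
Log2 of the IP mean plus 1 over the other group's mean plus 1 for the 9 genes, 1 panel per comparison. Points are ratios of means with 95% counting intervals, red bars span the 3 IP libraries, the line and grey band are the median and the 25th to 75th percentile of all genes, and the dotted line is 2-fold. *Piwil4* lies below 0 in all 3 panels, and *Pld6* and *Henmt1* lie just above 2-fold over BO and below it over INPUT and TOTAL.

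The spread among IP libraries was widest in the 3 genes with the fewest reads. On the scale of the TOTAL table the coefficient of variation over the 3 libraries was 9.24% in *Piwil1*, 11.7% in *Asz1*, 11.8% in *Gtsf1*, 12.03% in *Ddx4*, 12.3% in *Mov10l1* and 15.7% in *Piwil2*. It was 23.6% in *Pld6* and *Henmt1* and 32.4% in *Piwil4*. The recovered reads behind these values were 18889, 17259 and 19259 for *Piwil2* in libraries A, B and C, and 35, 31 and 46 for *Piwil4*. *Pld6* had 96, 87 and 111 reads and *Henmt1* had 133, 129 and 158.

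INPUT was then set beside TOTAL, as the difference of their log2 ratios to IP. IP does not cancel exactly in this difference, because its libraries are scaled differently in each comparison. The median difference was 0.12 over the 9 genes and -0.14 over all 14280 genes. *Piwil2* (1.04), *Mov10l1* (0.93) and *Piwil1* (0.54) were higher in INPUT, *Piwil4* (0.18), *Ddx4* (0.12) and *Asz1* (-0.10) were near TOTAL, and *Henmt1* (-0.27), *Pld6* (-0.45) and *Gtsf1* (-1.11) were lower. This order is the order of their longest transcripts, which measure 4916, 4133, 4016, 3304, 3012, 2345, 1998, 1753 and 819 nt. Across the 9 genes the Spearman correlation of the difference with log2 length was 1 and Pearson's was 0.97. Across 12961 genes these were 0.64 and 0.62. These are correlations across genes of the same libraries, which are not independent replicates, with lengths of GENCODE M21 transcripts.

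Genes of like length were set beside each member. *Gtsf1*, at -1.11, stood above the median of -1.60 for 472 genes below 1000 nt. *Pld6* and *Henmt1* stood above the median of -0.90 for 1955 genes from 1000 to 2000 nt, and *Asz1* above -0.40 for 2682 genes from 2000 to 3000 nt. *Ddx4* and *Piwil4* stood above -0.14 for 2654 genes from 3000 to 4000 nt. *Piwil1*, *Mov10l1* and *Piwil2* stood above 0.09 for 2036 genes from 4000 to 5000 nt, where *Piwil2* exceeded 98.7% and *Mov10l1* 97.05% of genes. All 9 genes were above the median of their length class. The ratio of IP to INPUT had a Spearman correlation with length of 0.30 over the 9 genes and 0.03 over all genes, that of IP to TOTAL 0.72 and 0.39, and that of IP to BO -0.18 and -0.37.

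**Figure D4:**
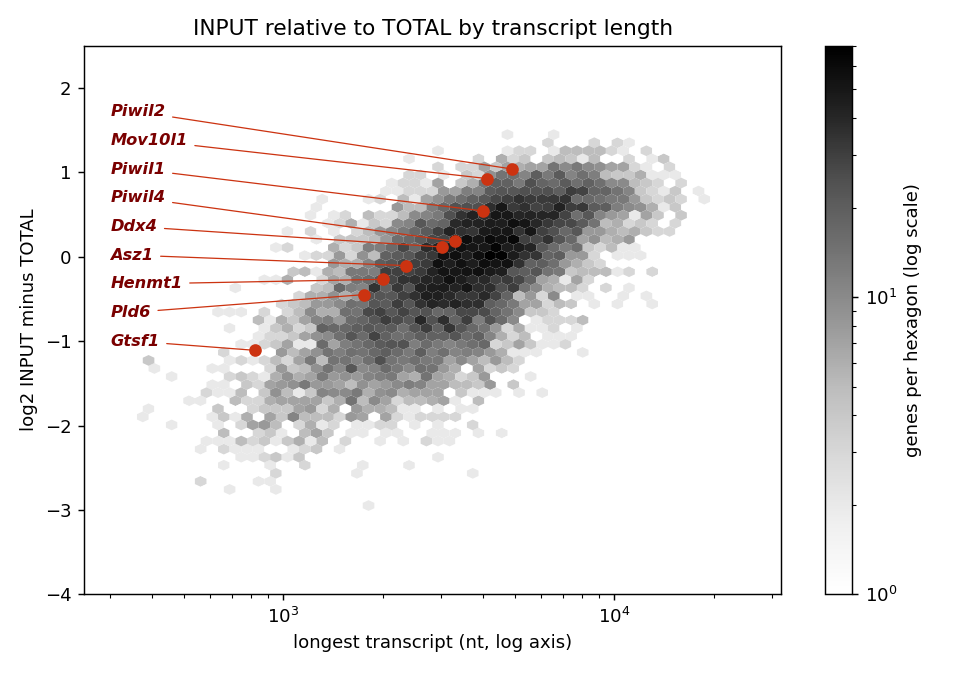
Difference of log2 INPUT and TOTAL (vertical axis) against the longest transcript in nt (log axis); the grey scale counts genes per hexagon and red points are the 9 genes. The 9 genes rise from *Gtsf1* (819 nt, -1.11) to *Piwil2* (4916 nt, 1.04) in the order of their lengths, and genes outside the drawn axes are not shown.

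BO was set beside INPUT in the same way. The median difference was -0.76 over the 9 genes and -0.55 over all 13578 genes. *Gtsf1* had the lowest value at -1.93, at percentile 9.83 of all genes. *Piwil1*, *Asz1* and *Ddx4* were each at -0.88, *Pld6* at -0.76, *Piwil2* at -0.75, *Mov10l1* at -0.66 and *Henmt1* at -0.32. *Piwil4* was even between BO and INPUT, at -0.0025. Of the 9 genes, *Piwil4* thus had the lowest ratio of IP to BO and the highest ratio of BO to INPUT. The latter was computed from the former and both contain the BO mean, so they are not separate observations.

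The level in TOTAL moved with the ratio of IP to TOTAL among the 9 genes, with a Pearson correlation of 0.86 and a Spearman correlation of 0.77 on log2 values. Over 12961 genes the values were -0.03 and 0.05. Both measures contain the TOTAL mean, and the 9 points come from the same libraries. *Piwil1* departs from this order, with a TOTAL mean of 143 between *Pld6* and *Gtsf1* and a ratio of 5.17-fold. The GC content of the longest transcripts ran from 36.3% in *Asz1* to 55.6% in *Pld6*, and over the 9 genes its Spearman correlation was 0.02 with the ratio of IP to TOTAL, -0.48 with that to INPUT and -0.57 with that to BO. Pearson's values were -0.27, -0.46 and -0.39. Over 12961 genes the Spearman values were -0.16, -0.27 and 0.17.

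Other genes of the piRNA pathway were read from a list of 26, of which 23 had values and *Spocd1*, *Dnmt3c* and *Gtsf2* were not analysed here. Against TOTAL, 16 of the 22 with a mean of at least 10 were at least 2-fold higher in IP and 1 was lower, beside 20.4% and 26.2% of all genes. The highest were *Tdrd5* (2.72), a Tudor protein of germ granules, *Tex15* (2.32), needed for transposon methylation, and *Tdrd7* (1.96), another Tudor protein. The lowest were *Dnmt3l* (-2.56), the DNA methylation cofactor of fetal germ cells, *Pnldc1* (-0.33), the trimmer of piRNA 3′ ends, and *Fkbp6* (0.01), a cochaperone. The median was 1.47, beside 2.10 for the 9 genes and -0.03 for all genes.

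Against INPUT, 14 of 21 were at least 2-fold higher and none was lower, beside 20.5% and 14.6% of all genes, with a median log2 ratio of 1.23. The count was 8 of 21 scaled by the upper quartile and 5 of 21 scaled by the sum of the gene means, beside 12.7% and 8.89% of all genes. *Ddx25* (1.97), a germ cell helicase, *Tdrd5* (1.97) and *Tdrkh* (1.71), the mitochondrial partner of PIWI proteins, were highest. *Adad2* (-0.34), *Mov10* (-0.11), the relative of *Mov10l1* found in many tissues, and *Pnldc1* (0.20) were lowest. Against BO, 16 of 21 were at least 2-fold higher, beside 43.9% of all genes, with a median of 1.76 beside 0.81. This became 10 of 21, beside 18.3% of all genes, relative to the median gene. The highest were *Ddx25* (3.12), *Prmt5* (2.88), which methylates arginines of PIWI proteins, and *Gpat2* (2.59), a mitochondrial piRNA factor. The lowest were *Pnldc1* (-0.68), *Mybl1* (0.59) and *Mov10* (0.61).

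Partners of the members differed from them in part. *Mov10l1* and its relative *Mov10* had log2 ratios to INPUT of 2.19 and -0.11. *Tdrd1*, which binds *Piwil2* protein, stood at 1.54 beside 1.78 for *Piwil2* against INPUT, at 1.40 beside 2.82 against TOTAL and at 1.28 beside 2.52 against BO. Against INPUT, *Tdrd9*, the helicase that acts with *Piwil4*, stood at 0.98 beside -0.36. *Pnldc1* and *Henmt1*, which act in turn on piRNA 3′ ends, stood at 0.20 and 0.92. None of these differences was tested.

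**Figure D5:**
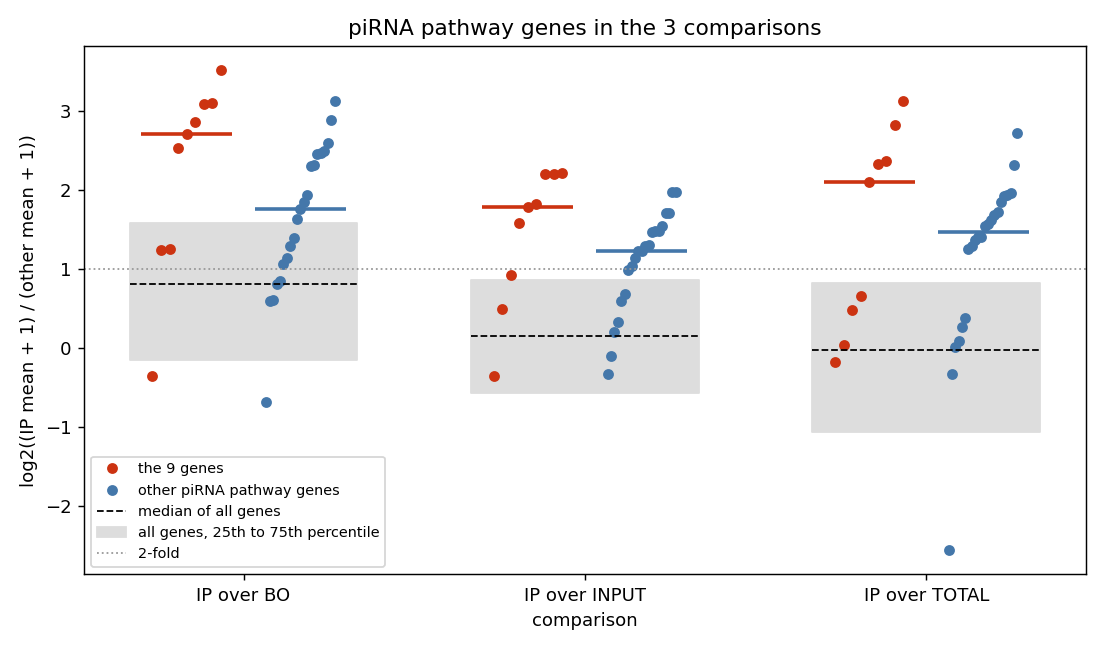
Log2 of IP plus 1 over BO, INPUT and TOTAL plus 1 for the 9 genes (red) and the other piRNA pathway genes (blue); short bars are list medians, dashed lines and grey bands the median and the 25th to 75th percentile of all genes, and the dotted line 2-fold. The medians of the 9 genes, 2.70, 1.78 and 2.10, lie above those of the other pathway genes and of all genes in the 3 comparisons. The shares at least 2-fold higher do not all do so. They were 88.9%, 66.7% and 55.6% of the 9 genes, and 76.2%, 66.7% and 72.7% of the other pathway genes.

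Genes with the pattern nearest to a member were sought by the Euclidean distance over the 3 log2 ratios (IP to BO, INPUT and TOTAL) among 11113 genes with a TOTAL mean of at least 100. Members are not listed among these neighbours. Nearest to *Piwil1* were *Ncapg* (distance 0.07), *Tspan33* (0.14), *Agbl5* (0.16), *Brdt* (0.22) and *Cog6* (0.23). Apart from the member *Asz1*, nearest to *Ddx4* were *Rnls* (0.23), *Iqcg* (0.26), *Dhx40* (0.28), *9230110C19Rik* (0.29) and *Magea8* (0.29). Nearest to the median of the 9 genes were *Copg2* (0.06), *Primpol* (0.11), *Lrrc49* (0.13), *Agbl5* (0.16) and *Pus10* (0.17). Among the members themselves the closest pair was *Asz1* and *Ddx4* (0.23), followed by *Piwil1* and *Piwil2* (0.49).

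The positions of the other genes in mm10 are chr5:128702524-128755474 for *Piwil1*, chr14:70372477-70429383 for *Piwil2* and chr9:14696230-14740733 for *Piwil4*. *Mov10l1* lies at chr15:88982909-89055152, *Ddx4* at chr13:112598333-112652475 and *Asz1* at chr6:18050964-18109061. *Pld6* lies at chr11:59783897-59787645, *Gtsf1* at chr15:103402405-103430470 and *Henmt1* at chr3:108939873-108960774. Exons of *Piwil4* share 137 bases with the antisense gene *Gm10706*, and exons of *Henmt1* share 392 bases with *Gm9857* on the opposite strand. The libraries were stranded, but whether counting used the strand is not given in the sources used here, so the values of these 2 genes are uncertain in that respect.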

How the data were processed

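The 12 libraries were grouped by the sample labels into TOTAL, INPUT, IP and BO. Per the study's methods, the authors made stranded rRNA-depleted libraries, read 75 nt single ends, mapped them to mm10 with STAR 2.6.0c and normalised read counts with DESeq2 1.24.0. The annotation used for counting is not given in the sources used here. The deposited signal in each of 3 gene tables is the authors' mean of counts divided by size factors over the 3 libraries of a group, rounded to 3 decimals. Each table was normalised separately over 6 libraries, so ratios were taken within a table, and levels set across tables carry different scalings. The tables also hold the authors' log2 fold changes, standard errors, test statistics and p-values, which were not used. A table of repeat subfamilies was not used either, and 0 columns of per-sample values belonged to no sample.

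Rows of repeat loci and 4 summary rows (unmapped, multimapping, no feature, ambiguous) were removed. The summary rows held 22.1% of normalised counts in IP, 30.5% in INPUT, 37.9% in BO and 38.6% in TOTAL. Ratios were log2(mean + 1), which understates changes of low genes, for genes with a mean of at least 10 over both groups, and 2-fold was the limit for a call. No p-value is given. In place of the limma test foreseen in the design, which needs values per library, calls were made from group means. IP reads were recovered by solving the 3 IP means of each row for whole reads, which gave all 3 means within 0.0006 in 99.9969% of 385332 rows with an IP mean above 0 and in 99.96% of 19151 genes. Tested on simulated counts of 20981 genes for IP and BO, recovery gave 100% of genes, and 100% of 200 genes raised 4-fold were called, with 12 others. The unchanged genes of the simulation had equal means in both groups, while the real median gene against BO was at 0.81. The 12 calls therefore give no rate of false calls for the real comparisons. Counting errors assume the shallowest library of each group, and PCR duplicates are not known, so they cover counting error only.

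Lengths, positions and exons come from GENCODE M21, whose assembly is mm10, with a length for 94.8% of genes. The named genes are the 10 members, of the other pathway list the 3 highest and 3 lowest in each comparison and those that act with a member, and the 5 nearest in pattern. The members and lists were chosen with earlier results of these data known. Alternatives were pseudocounts of 0.1 and 10, no filter or a mean of at least 100, 3 scalings, 1.5- and 3-fold limits, and each IP library left out. Python 3.11.15, pandas 2.3.3, numpy 2.4.6, scipy 1.17.1 and matplotlib were used.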

Additional observations from a re-analysis of the deposited data

How the results depend on the processing

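No called ratio of a single gene changed sign under any alternative run. Of 216 values of single genes under other pseudocounts, scalings or IP libraries, 162 moved by less than the spread over the IP libraries. The 54 that moved further were under other scalings, except *Gtsf1* against BO with a pseudocount of 10. None moved further with an IP library left out, where the value is set against the spread of libraries it contains. The count of 162 is therefore no measure of robustness to scaling. The median of the 9 genes against BO was 2.97 with a mean of at least 100, 1.89 centred on the median gene or scaled by the upper quartile, and 2.42 scaled by the sum of gene means. Against INPUT it was 1.465 by the upper quartile and 1.243 by the sum. Against TOTAL it was 1.58 by the sum, and 1.37 with no filter, which admits *Mael*. INPUT against TOTAL moved to 0.38 by the upper quartile. BO against INPUT moved to -0.21 centred, -0.27 by the upper quartile and -1.004 by the sum. Of the other pathway genes, those higher than BO were 10 of 21 centred or by the upper quartile, beside 18.3% of all genes. Those higher than INPUT were 8 of 21 by the upper quartile, 5 by the sum and 4 at 3-fold, beside 12.7%, 8.89% and 8.13% of all genes. Those higher than TOTAL were 9 of 22 at 3-fold, beside 8.82% of all genes. Scaling by the sum moved the median of all genes to 0.52 against BO, -0.38 against INPUT and -0.55 against TOTAL. For BO against INPUT it was then -0.78. The upper quartile put the median of all genes at -0.003 against BO and -0.16 against INPUT. It put that median at 0.12 for INPUT against TOTAL and -0.03 for BO against INPUT. Centring sets it to 0 by definition. A change of scale moves all genes of a comparison by nearly the same log2 amount, so these shifts are not particular to the 9 genes. The shift with a mean of at least 100 was not tested.

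Leaving out each IP library, chosen after the data had been seen, gave 8 members higher than BO each time, 6 to 7 higher than INPUT and 5 higher than TOTAL each time, with medians of 2.65 to 2.77, 1.67 to 1.855 and 1.996 to 2.15. Of all genes, 40.9% to 45.8% were higher than BO in these runs, 19.1% to 23.0% higher than INPUT and 18.3% to 22.2% higher than TOTAL. INPUT against TOTAL ranged from 0.095 to 0.13 and BO against INPUT from -0.77 to -0.75. No paired analysis was possible because the gene tables give group means and the recovered IP libraries carry no replicate number. For the same reason, leaving out replicates of BO, INPUT or TOTAL was not run. Depth limits *Piwil4*, *Pld6*, *Henmt1* and, in BO, *Gtsf1*.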
